A study of Mus musculus with 6 samples.

Results

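Genes that the transcription factor p53 switches on were followed in mouse bone marrow macrophages whose signalling receptor carried or lacked a working IVVY motif. The set was chosen by name as 10 genes (Mdm2, Ccng1, Trp53inp1, Bax, Bbc3, Pmaip1, Phlda3, Zmat3, Sesn1 and Ei24) and by every probe set whose platform annotation gives exactly 1 of these symbols. That rule found 17 probe sets for 9 genes, out of 45037 probe sets and 18193 genes with 1 symbol. Bax was not analysed here. Each gene is represented by its brightest probe set, judged on the mean of the 6 arrays, and the others are given beside it.

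Levels were read on 6 Affymetrix Mouse Genome 430 2.0 arrays, 3 for each group. All cells were macrophages of C57BL/6 background from TNFR1-/-R2-/- mice, which lack both receptors for TNF, and all were infected with a retrovirus, after which carriers were selected for 3 days in puromycin (2 ug/ml). In the mutant group the virus encoded a chimeric receptor with the outer domain of TNFR1 and the transmembrane and inner domains of RANK, with inactivating mutations in the IVVY motif. In the wild-type group the inner RANK domain was intact. For 24 hours both groups received TNF (10 ng/ml), the ligand of the outer domain, together with the macrophage growth factor M-CSF (44 ng/ml), so that TNF drove RANK signalling through the chimera, and the study asked which genes the motif regulates. RNA of 6 dishes was pooled for each array, and the preparations came from 3 independent assays. Whether each assay had its own mice is not stated, so p-values measure the spread between these preparations. The receptor is delivered by a virus into selected cells that no longer respond through their own TNF receptors, which limits the model. In pooled RNA, fewer cells that express a gene and less RNA per cell cannot be told apart.

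The transcription factor p53 is held low by Mdm2, a ubiquitin ligase that marks it for destruction and is itself a p53 target, which closes a feedback loop. When DNA damage or other stress frees p53, it binds paired copies of a short half-site near its targets. One branch of targets halts the cell cycle or limits growth signals, and another leads to death through mitochondria, where Bbc3 (PUMA) and Pmaip1 (NOXA) neutralise the guardians of the BCL2 family. Macrophages divide in response to M-CSF, while RANK signalling turns them into osteoclasts, the bone-resorbing cells, which leave the cell cycle.

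The RefSeq promoter table held 6 of the 9 measured genes with 9 annotated starts (build GRCm38.p6), and the 250 bases before each start were searched for the p53 half-site consensus of 10 bases, which reads the same on both strands. An exact half-site lay in 4 of the 6 genes, at 1 or more of their starts, against 7.25% of the 8520 kept genes with a promoter in the table. For Bbc3 none of 3 starts held one, and for Phlda3 its single start held none. Half-sites lying side by side, with at most 1 mismatch in the second, were found for Ccng1 alone among the 6 genes, and in 25 of the 32851 promoters of the whole table. A match here is a match of letters, and no binding of p53 was measured. The windows with a half-site are shown for comparison with each other, and that of Phlda3 is added because Phlda3 had the most negative mean difference. Capitals mark the half-site, or the pair of half-sites in Ccng1, and each line reads 5′ to 3′ on the strand of the gene.
Ccng1 (chr11:40755287-40755536, minus strand): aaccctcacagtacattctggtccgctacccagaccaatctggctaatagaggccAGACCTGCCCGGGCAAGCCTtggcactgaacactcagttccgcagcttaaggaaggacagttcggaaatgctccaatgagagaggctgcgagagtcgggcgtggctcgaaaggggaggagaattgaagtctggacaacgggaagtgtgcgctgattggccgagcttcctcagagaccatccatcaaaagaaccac
Mdm2 (chr10:117710759-117711008, minus strand): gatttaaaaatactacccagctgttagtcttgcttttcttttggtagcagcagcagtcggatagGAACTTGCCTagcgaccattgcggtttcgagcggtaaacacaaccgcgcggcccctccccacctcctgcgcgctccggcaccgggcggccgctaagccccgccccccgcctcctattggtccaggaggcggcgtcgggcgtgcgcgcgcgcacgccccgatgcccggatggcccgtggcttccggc
Sesn1, second of its 2 starts (chr10:41887189-41887438, plus strand): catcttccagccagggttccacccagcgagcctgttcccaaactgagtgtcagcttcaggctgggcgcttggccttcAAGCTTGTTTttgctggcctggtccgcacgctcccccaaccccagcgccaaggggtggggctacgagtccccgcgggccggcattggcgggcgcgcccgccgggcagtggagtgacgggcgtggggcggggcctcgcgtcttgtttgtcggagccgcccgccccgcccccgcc
Ei24 (chr9:36797335-36797584, minus strand): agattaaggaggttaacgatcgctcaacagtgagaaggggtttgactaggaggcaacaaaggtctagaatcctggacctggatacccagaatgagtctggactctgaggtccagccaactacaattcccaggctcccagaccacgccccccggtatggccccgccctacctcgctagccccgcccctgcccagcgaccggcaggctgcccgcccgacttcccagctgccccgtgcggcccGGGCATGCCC
Phlda3 (chr1:135765835-135766084, plus strand): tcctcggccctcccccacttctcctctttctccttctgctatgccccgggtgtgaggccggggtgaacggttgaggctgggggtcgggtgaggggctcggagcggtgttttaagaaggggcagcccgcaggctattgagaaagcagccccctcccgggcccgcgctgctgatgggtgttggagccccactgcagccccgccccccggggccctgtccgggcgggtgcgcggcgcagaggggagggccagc

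The half-site of Ccng1 begins 185 bases before the annotated start, that of Mdm2 186 bases and that of Sesn1 173 bases before it, while that of Ei24 occupies the last 10 bases before the start. No promoter was searched for Trp53inp1, Pmaip1 and Zmat3. None of the 9 measured genes passed the test between groups, nor did any of the 22497 kept probe sets, so passing cannot be compared by half-site.

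Macrophage markers were high on every array, while osteoclast markers differed strongly between the groups. All 8 macrophage markers lay above the array median on every array, with intensities that summed to 132859 to 147539 on the mutant arrays, against 137080 to 150732 on the wild-type arrays. The sum of the osteoclast markers was 815 to 1320 on mutant arrays, against 8074 to 25116 on wild-type ones. All 5 osteoclast markers that passed the filter on dim probe sets were lower in the mutant without overlap, where 1.96% of all kept genes were. Of the 6 neutrophil markers with a probe set, 5 (Mpo, Elane, Camp, Ltf and S100a9) lay above the array median on no array, as did 3 of 4 lymphocyte markers (Cd3e, Cd79a and Cd2). The 6 neutrophil markers summed to 153 to 674 in mutant preparations against 237 to 702 in wild-type ones, and the 4 lymphocyte markers to 27 to 28 and 27 to 30. Stromal markers summed to 7258 on mutant array 3, to 5460 on wild-type array 3, and to no more than 457 on any other array, and of these 8 markers Lum lay above the array median on no array. Of 3 erythroid and megakaryocyte markers with a probe set, Klf1 and Itga2b lay above it on no array, and the sum, carried by Pf4, was 5207 to 15263 on mutant and 4470 to 9867 on wild-type arrays. Median intensities were 8.87 to 9.38, and with 3 arrays a group the precision of all values is limited. Mutant array 2 stood apart in the control probe sets for the ends of actin mRNA, where the signal of the 5′ end was 37.5% of that of the 3′ end. That share was 55.3% on wild-type array 2 and 64.2% to 66.9% on the arrays of numbers 1 and 3. For Gapdh it was 77.9% on mutant array 2, 96.4% on wild-type array 2 and 116% to 134% elsewhere, so both arrays of number 2 were the lowest. A low share is a usual sign of shortened RNA or incomplete copying, so the difference of each of the 9 genes is given with and without mutant array 2. Leaving out that array alone keeps wild-type array 2.

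Over the 9 genes, the mutant mean was the lower one for 8 and the higher one for 1, with a median difference of -0.29 on the log2(intensity + 16) scale. Over all 10372 genes that passed the filter on dim probe sets, 46.8% had a lower mean and the median difference was 0.01. By limma, adjusted over all 22497 kept probe sets, 0 of the 9 genes passed, and the background was 0.0% (0 probe sets called), with 146 lower (0.649%) and 52 higher (0.231%) probe sets at an unadjusted p under 0.05. None of the 9 genes had such a p. The unadjusted p-values of the 9 genes ran from 0.167 to 0.72 by limma, and the adjusted p-value of each was 0.99998. In the same fit the osteoclast markers Mmp9, Ctsk and Acp5 differed by -4.88, -3.82 and -3.54 and also had an adjusted p of 0.99998. Not passing therefore does not show that a gene was unchanged. No gene of the set separated the groups without overlap, where 3.32% of all kept genes did. Without both arrays of number 2 the count of lower means was 6 of 9 and the median difference -0.05, where 49.5% of all kept genes were lower. Without mutant array 2 alone they were 6 of 9 and -0.12, where 60.4% of all kept genes were lower with a median of -0.03, so the count was close to the background. Without mutant array 1 they were 6 of 9 and -0.07 (46.7% of all kept genes lower), and without wild-type array 3 they were 7 of 9 and -0.09 (54.9%). Without mutant array 3 all 9 means were lower, with a median of -0.49 (41.3%).

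**Figure D1:**
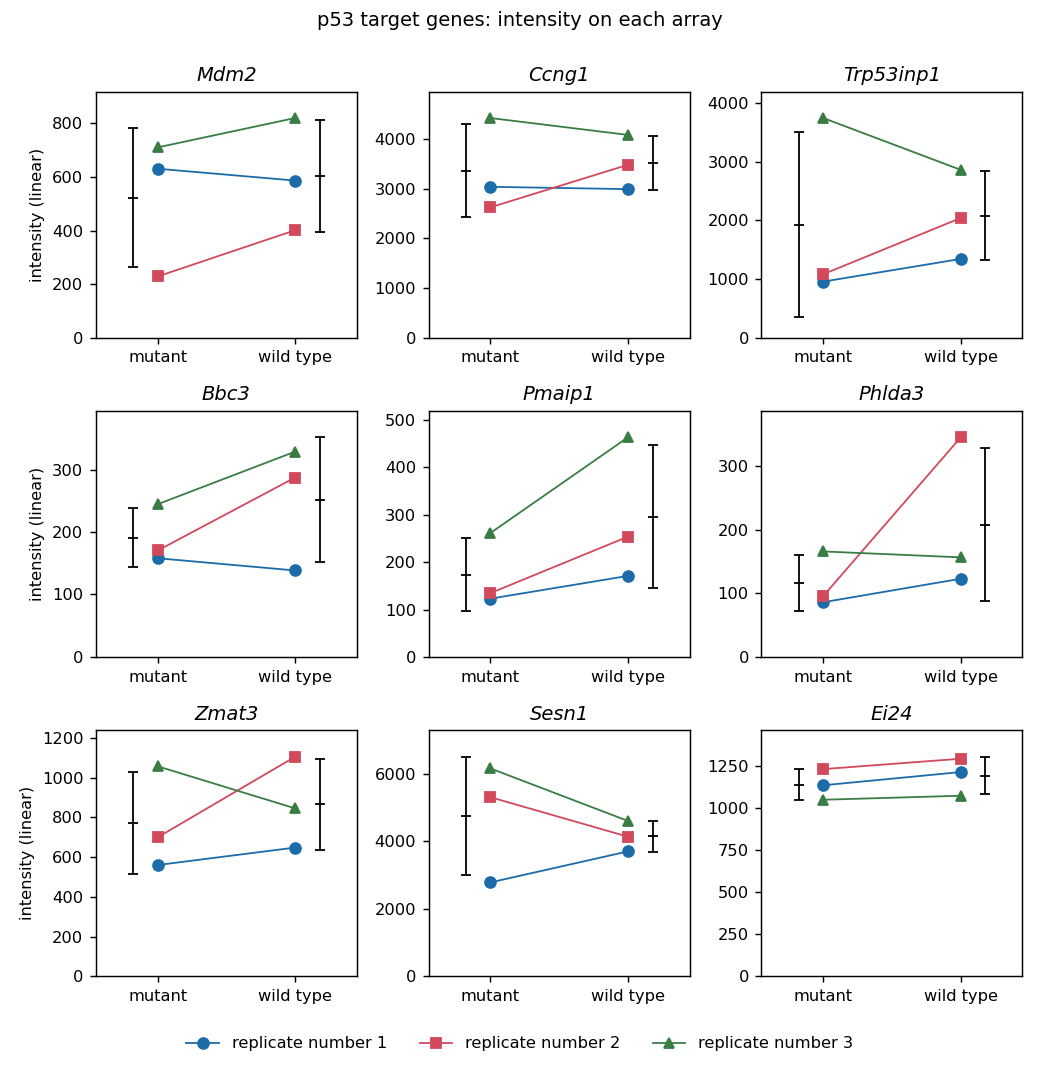
Intensity (linear scale, vertical axis from 0) of the brightest probe set of each of the 9 measured genes on the 3 mutant and 3 wild-type arrays. Lines join arrays of the same replicate number, and black bars beside the points give the mean ± SD (n = 3). Pmaip1 and Ei24 are the genes whose lines all climb towards the wild type, and in every panel the ranges of the groups overlap.

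The regulators of p53 in the set are Mdm2, Ccng1 and Trp53inp1. Mdm2 read 631, 228 and 711 on mutant arrays 1, 2 and 3, against 587, 401 and 820 on wild-type arrays 1, 2 and 3. Both lowest values were those of number 2, and mutant array 2 was the lowest of all. The difference was -0.29 ± 0.50 (SE) on the log2 scale, with a 95% interval of -1.56 to 0.98, and without mutant array 2 it turned to 0.21. A second Mdm2 probe set read 409, 383 and 478 in the mutant, against 389, 455 and 537 in the wild type, and differed by -0.11 ± 0.16. The spread of Mdm2 in the mutant was thus 258 (SD, n = 3) by the brighter probe set and 48.9 by the other. The remaining Mdm2 probe set fell below the filter, at 4.91 to 4.99 on mutant arrays and 4.92 to 6.06 on wild-type arrays.

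Ccng1 encodes cyclin G1, which brings a phosphatase to Mdm2. Its brightest probe set read 3041, 2628 and 4429 on mutant arrays 1, 2 and 3, against 2994, 3485 and 4088 on wild-type arrays 1, 2 and 3. The mutant values span the wild-type values, since the lowest and the highest reading both came from mutant arrays. The difference was -0.09 ± 0.24 (SE), with a 95% interval of -0.68 to 0.51, and it turned to 0.07 without mutant array 2. Both other Ccng1 probe sets were lowest on mutant array 2, where they read 334 and 391. They read 608 and 619 on wild-type array 2, and 704 or more on all other arrays. Within pair 2 the 3 probe sets differed by -0.40, -0.83 and -0.64, and within pair 3 by 0.11, 0.18 and 0.18.

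Trp53inp1 encodes a stress-induced protein that promotes the activity of p53 and also acts in autophagy. It read 954, 1081 and 3745 on mutant arrays 1, 2 and 3, against 1341, 2039 and 2862 on wild-type arrays 1, 2 and 3. Array 3 was the highest in each group, at 3.93 times array 1 in the mutant and 2.13 times in the wild type. The difference was -0.33 ± 0.61 (SE), the widest error of the 9 genes, and it was -0.07 without mutant array 2 and turned to 0.02 without mutant array 1. A second, dim probe set read 15.8, 5.91 and 78.1 in the mutant, against 22.1, 19.6 and 52.0 in the wild type, again with array 3 highest.

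The death-promoting targets Bbc3 and Pmaip1 encode small proteins of the BCL2 family that carry only its BH3 domain. Bbc3 read 158, 170 and 244 on mutant arrays 1, 2 and 3, against 138, 287 and 329 on wild-type arrays 1, 2 and 3. It was lower in the mutant of pairs 2 and 3 and higher in the mutant of pair 1. The difference was -0.31 ± 0.36 (SE), with a 95% interval of -1.21 to 0.58, and it was -0.25 without mutant array 2.

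Pmaip1 read 123, 135 and 262 on mutant arrays 1, 2 and 3, against 171, 254 and 463 on wild-type arrays 1, 2 and 3. Each mutant array was below the wild-type array of its own number, but mutant array 3 exceeded wild-type arrays 1 and 2. The mutant arrays averaged 173 ± 76.8, against 296 ± 151 for the wild-type arrays (SD, n = 3 each), and the log2 difference was -0.69 ± 0.44 (SE). Its 95% interval ran from -1.80 to 0.43 when pairs were ignored, and without mutant array 2 the difference was -0.56. The pair differences were -0.43, -0.84 and -0.79 in pairs 1, 2 and 3, so pair 2, which holds mutant array 2, was close to pair 3. Leaving out any array or pair kept the mean difference between -0.9996 and -0.32.

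The targets that restrain growth signals and the cell cycle are Phlda3, Zmat3 and Sesn1. Phlda3, which competes with the kinase Akt for membrane lipids, read 86.0, 95.8 and 166 on mutant arrays 1, 2 and 3. On wild-type arrays 1, 2 and 3 it read 123, 346 and 157. Wild-type array 2 was above all other arrays, and pair 2 differed by -1.69 where pairs 1 and 3 differed by -0.45 and 0.08. The mean difference was -0.69 ± 0.43 (SE), with a 95% interval of -1.77 to 0.40, and it was -0.59 without mutant array 2 and -0.19 without both arrays of number 2.

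Zmat3, an RNA-binding zinc finger protein, read 560, 700 and 1058 on mutant arrays 1, 2 and 3, against 648, 1106 and 846 on wild-type arrays 1, 2 and 3. The highest wild-type array was number 2 and the highest mutant array number 3. The difference was -0.18 ± 0.31 (SE). It was -0.13 without mutant array 2, and it turned to 0.06 without both arrays of number 2, to 0.01 without wild-type array 2 and to 0.02 without mutant array 1.

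Sesn1, a sestrin that dampens the growth kinase mTORC1, was the 1 gene with a higher mean in the mutant. It read 2779, 5301 and 6153 on mutant arrays 1, 2 and 3, against 3697, 4132 and 4600 on wild-type arrays 1, 2 and 3. The wild-type arrays lay inside the range of the mutant arrays. The difference was 0.12 ± 0.32 (SE), and it was 0.0035 without mutant array 2 and turned to -0.10 without mutant array 3. All 4 Sesn1 probe sets had a higher mean in the mutant, by 0.12, 0.20, 0.19 and 0.35, and the dimmest of them was higher in every pair. That one read 82.1, 157 and 195 in the mutant, against 59.9, 103 and 178 in the wild type. Mutant array 2 was thus above wild-type array 2 for each Sesn1 probe set, while 8 of the 9 genes were lower within pair 2.

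Ei24, a membrane protein of the endoplasmic reticulum induced by p53, varied least. It read 1133, 1229 and 1048 on mutant arrays 1, 2 and 3, against 1212, 1291 and 1072 on wild-type arrays 1, 2 and 3. Each mutant array was just below the wild-type array of its number. The difference was -0.07 ± 0.12 (SE), with a 95% interval of -0.36 to 0.23, and it was -0.12 without mutant array 2.

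**Figure D2:**
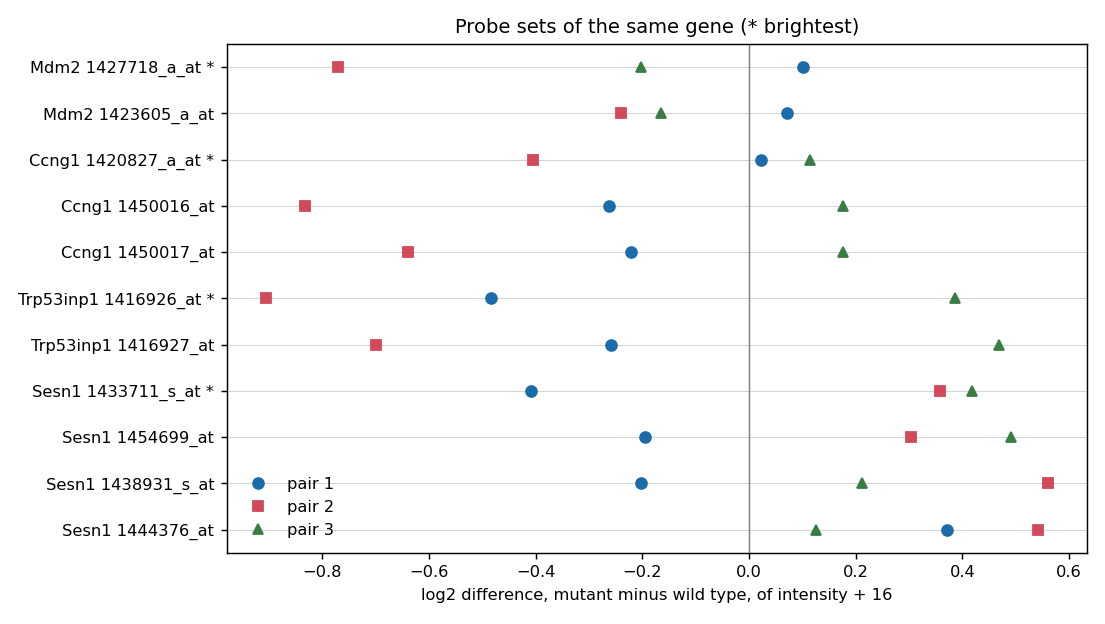
Log2 differences (mutant minus wild type, horizontal axis) within pairs 1, 2 and 3 for every kept probe set of the 4 genes with several probe sets. The brightest probe set of each gene is starred. Pair 2 is the lowest for each Mdm2, Ccng1 and Trp53inp1 probe set, while for Sesn1 pair 2 is above 0 on all 4.

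The set did not behave alike in the 3 same-numbered pairs. In pair 1, 6 of the 9 genes were lower and 3 higher in the mutant, with a median difference of -0.20. In pair 2, 8 were lower and 1 higher, with a median of -0.70. In pair 3, 4 were lower and 5 higher, with a median of 0.08. Over all kept genes 50.8%, 43.8% and 49.6% were lower in pairs 1, 2 and 3, with medians of 0.00, 0.02 and 0.00. Pair 2 gave the lowest of the 3 pair differences for 7 of the 9 genes, against 29.0% of all kept genes. Lower in every pair were 2 genes, Pmaip1 and Ei24, and higher in every pair were 0, against 12.0% and 14.5% of all kept genes. When limma took same-numbered arrays as blocks, Pmaip1 had an unadjusted p of 0.00438 and an adjusted p of 0.859. By its brightest probe set, none of the other 8 genes had an unadjusted p under 0.05 in that fit. The dimmest Sesn1 probe set, higher in the mutant in every pair, had an unadjusted p of 0.0376 there and an adjusted p of 0.859. With these blocks 5.89% of all kept genes had an unadjusted p under 0.05 and 0.0% of probe sets passed.

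**Figure D3:**
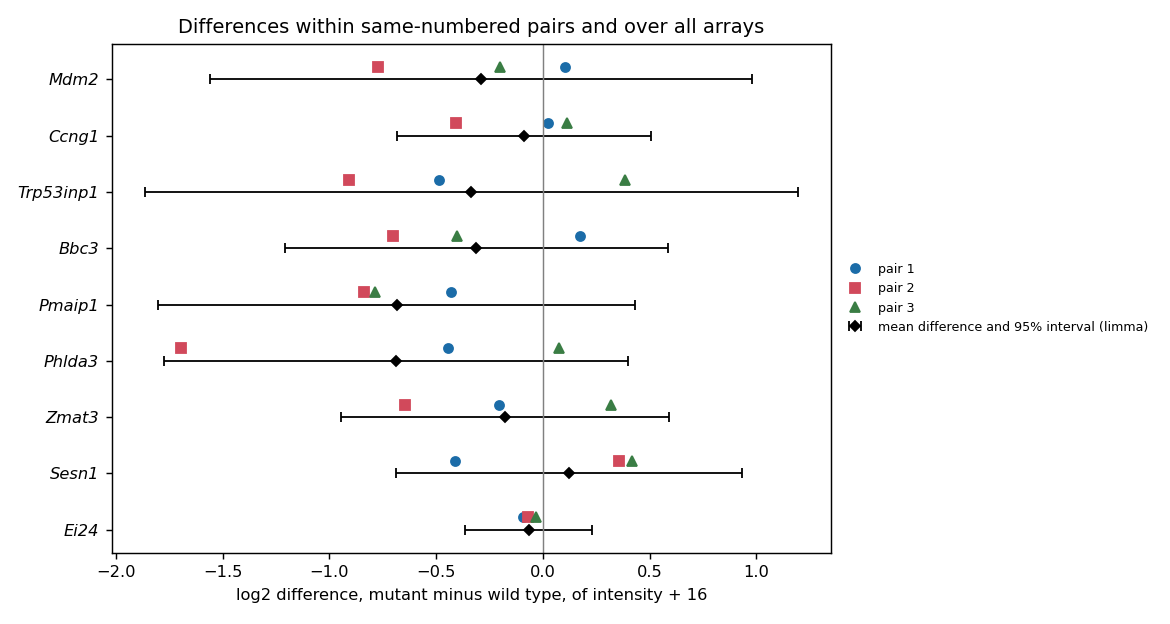
Log2 differences (mutant minus wild type, horizontal axis) of the 9 genes: coloured points are pairs 1, 2 and 3, and black diamonds with bars are the mean difference and its 95% interval from limma without a block. Each of these intervals spans 0, though with same-numbered arrays as blocks that of Pmaip1 did not (-1.01 to -0.36). The point of pair 2 is the leftmost for 7 genes.

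For 8 of the 9 genes replicate number took a larger share of the sum of squares than group did. Phlda3 was the exception, with 28.8% from replicate number and 32.9% from group. Replicate number has 3 levels and group 2, so noise alone gives replicate number the larger share on average. The same shares over all kept genes are not given here, so these shares are not a trait particular to the set. Over the 9 genes replicate number accounted for up to 89.1% of the sum of squares over the 6 arrays, with a median of 70.9%. Group accounted for at least 2.78%, with a median of 6.37%, and for 31.5% in Pmaip1, whose replicate number accounted for 66.3%. Array 3 was the highest of both groups for 6 of the 9 genes, where 18.8% of all kept genes had that order. Pmaip1 on array 3 was 2.13 times array 1 in the mutant and 2.71 times in the wild type. The mean of the 9 genes, each centred on its own mean over the 6 arrays, was -0.41, -0.38 and 0.37 on mutant arrays 1, 2 and 3 and -0.21, 0.25 and 0.38 on wild-type arrays 1, 2 and 3. It was thus low on both arrays of number 1, high on both of number 3, and on opposite sides of 0 in pair 2.

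Proliferation genes had the opposite order between arrays of number 1 and arrays of number 3. The mean centred level of the 14 measured genes was 1.70, -0.05 and -1.56 on mutant arrays 1, 2 and 3, against 1.16, 0.35 and -1.60 on wild-type arrays 1, 2 and 3. Arrays of number 3, with the highest mean level of p53 targets, thus had the lowest level of proliferation genes in both groups, and they were also the arrays with stromal markers. The part of cell cycle activity, of stromal RNA and of the low 5′ signal on both arrays of number 2 in the levels of the p53 targets was not tested. Of the 14 proliferation genes the mutant mean was lower for 8 and higher for 6, and 0 passed by limma over all probe sets. Within pair 2 also 8 were lower and 6 higher, so the mean level on arrays of number 2 joins genes that went opposite ways. The 4 with the smallest p were higher in the mutant: the replication helicase subunits Mcm3 (0.81 ± 0.70 SE), Mcm6 (0.73 ± 0.79) and Mcm2 (0.86 ± 1.05), and the polymerase clamp Pcna (0.51 ± 0.47). By limma with same-numbered arrays as blocks, the unadjusted p was 0.0133 for Mcm3, 0.0163 for Mcm2, 0.0249 for Pcna and 0.0882 for Mcm6. The adjusted p of each was 0.859 in that fit. Mcm3, Mcm2 and Pcna were higher in every pair, and Mcm6 in pairs 1 and 2. Mcm3 read 981, 1089 and 240 on mutant arrays 1, 2 and 3, against 503, 481 and 188 on wild-type arrays 1, 2 and 3. It was about the same on arrays 1 and 2 of a group and much lower on array 3.

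**Figure D4:**
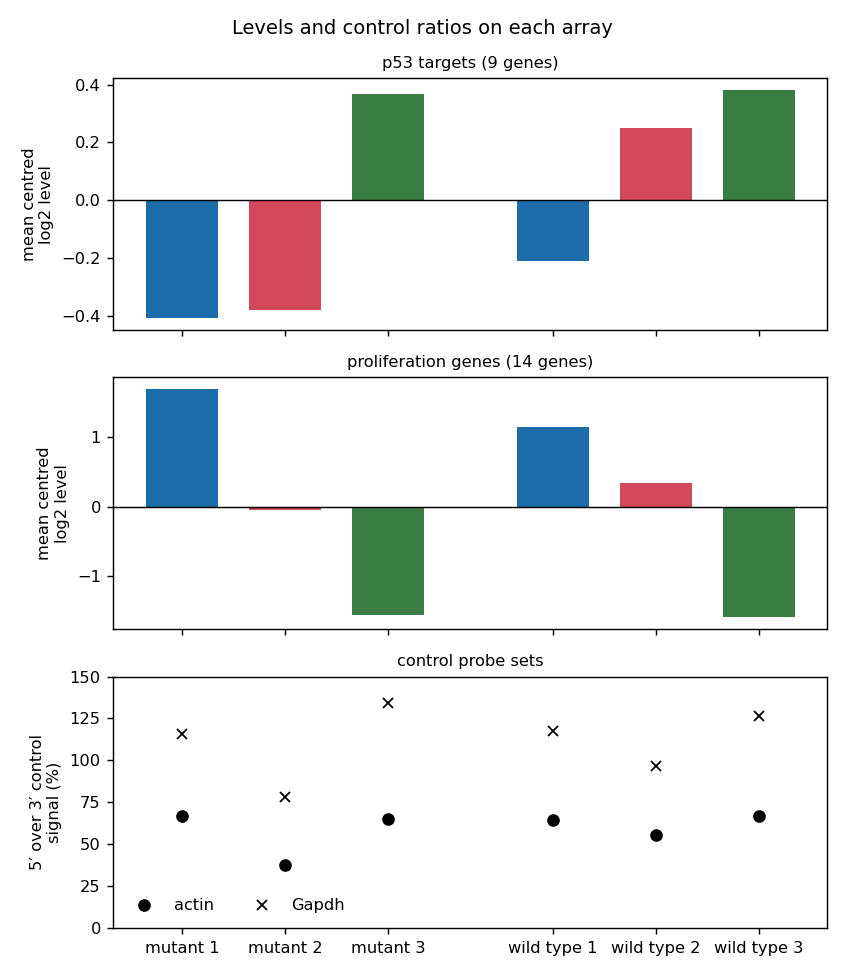
Top and middle: mean log2 level on each array of the 9 p53 targets and of 14 proliferation genes, each gene centred on its mean over the 6 arrays. Bottom: signal of the 5′ over the 3′ control probe sets of actin and Gapdh, in percent. Colours mark replicate numbers 1 (blue), 2 (red) and 3 (green). Mutant array 2 has the lowest ratio of both controls, followed by wild-type array 2.

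Outside the set, 13 of 14 listed regulators of p53 had a probe set and 10 passed the filter, of which 7 were lower and 3 higher in the mutant on the mean, and 0 passed by limma over all probe sets. The gene of p53 itself, Trp53, was not analysed here. Mdm4, the relative of Mdm2 that binds and inhibits p53, read 307, 264 and 247 on mutant arrays 1, 2 and 3, against 378, 310 and 300.5 on wild-type arrays 1, 2 and 3. It was lower in every pair, by a nearly equal -0.29, -0.22 and -0.27, and the mean difference was -0.26 ± 0.14 (SE). By limma its unadjusted p was 0.116, and with same-numbered arrays as blocks it was 0.0253 with an adjusted p of 0.859. The damage kinases Atr and Chek1 differed by 0.22 ± 0.20 and 0.58 ± 0.56, and the p53 ubiquitin ligase gene Rchy1 by -0.11 ± 0.16.

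Of 27 further p53 targets 25 had a probe set and 21 passed the filter. On the mean 12 of these were lower and 9 higher in the mutant, by a median of -0.09, and 0 passed by limma over all probe sets. Pair medians were 0.00, -0.17 and 0.01 in pairs 1, 2 and 3, so pair 2 was the lowest here too. The 12 lower genes include Sfn, which lay near the array median (9.65 to 9.78 on mutant arrays) and differed by -0.09. Cdkn1a, the inhibitor p21 that halts the cell cycle, read 2550, 2748 and 5367 on mutant arrays 1, 2 and 3, against 3106, 4086 and 5744 on wild-type arrays 1, 2 and 3. It was lower in every pair, with array 3 highest in both groups, and differed by -0.32 ± 0.37 (SE). Fas, a death receptor, read 182, 112 and 202 on mutant arrays 1, 2 and 3, against 212, 289 and 297 on wild-type arrays 1, 2 and 3. It was the 1 gene of the 21 with no overlap between the groups, where 1.96% of all kept genes were lower without overlap. Its difference was -0.66 ± 0.25 (SE), with an unadjusted p of 0.0440 by limma, and without mutant array 2 it was -0.43 with an unadjusted p of 0.0803. Pidd1, a scaffold for caspase activation, differed by 0.23 ± 0.15, the nuclease gene Aen by -0.12 ± 0.11 and the epoxide hydrolase gene Ephx1 by -0.69 ± 0.80.

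The listed genes of the BCL2 family, to which Bbc3 and Pmaip1 belong, and of the caspases were split. Of 18 listed, 16 had a probe set and 15 passed the filter, 7 lower and 8 higher in the mutant on the mean, and 0 passed by limma over all probe sets. The lower ones include Bok, which lay near the array median (9.60 to 9.64 on mutant arrays) and differed by -0.0005. Bcl2, the founding guardian against death, read 276, 265 and 38.9 on mutant arrays 1, 2 and 3, against 148, 87.9 and 34.3 on wild-type arrays 1, 2 and 3. It was higher in every pair, but array 3 of each group was far below the others, and the difference was 0.80 ± 0.81 (SE). By limma with same-numbered arrays as blocks, its unadjusted p was 0.0461 and its adjusted p 0.859. Bcl2l1, which encodes BCL-XL, differed by 0.53 ± 0.67, the BH3-only gene Bik by 0.34 ± 0.35 and Cycs, cytochrome c, by -0.23 ± 0.31.

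Paralogues of the 9 genes were also followed: Mdm4, Ccng2, Trp53inp2, Phlda1, Phlda2, Sesn2 and Sesn3. Of the 7, 6 passed the filter, 5 lower and 1 higher in the mutant on the mean, and 0 passed by limma over all probe sets. Phlda1 read 67.0, 124 and 80.8 on mutant arrays 1, 2 and 3, against 136, 80.4 and 264 on wild-type arrays 1, 2 and 3. It differed by -0.62 ± 0.44 (SE), with pair differences of -0.87, 0.53 and -1.53, so pair 2 was the highest of its pairs where for Phlda3 it was the lowest. Trp53inp2 differed by -0.18 ± 0.31 and Sesn3 by -0.08 ± 0.14.

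The genes whose levels most resembled the mean of the 9 across the 6 arrays were Crlf3, Usp3 and Cxcl10, with Pearson correlations of 0.997, 0.996 and 0.993. Of 10363 genes compared, 58 exceeded 0.95, and the 6 arrays share the differences between replicate numbers. Cxcl10, a chemokine, read 105, 109 and 711 on mutant arrays 1, 2 and 3, against 142, 427 and 736 on wild-type arrays 1, 2 and 3, with the same low pair of mutant arrays and the same high array 3.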

How the data were processed

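Biotin-labelled RNA of 3 mutant and 3 wild-type preparations was hybridised to Mouse Genome 430 2.0 arrays, per the labels' protocols. The deposited values were intensities on a linear scale, 1 per probe set and array, made by the authors with GCOS and GCRMA, per the submitters' processing notes; versions and how the programs were combined are not given in the sources used here. Their 75th percentiles were 161 to 165, and no further normalization was applied. GCRMA evens out the distributions of arrays and pulls weak signals to a common low value, so small differences of dim genes are lost.

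Groups and replicate numbers came from the sample titles. Of 45101 probe sets, 64 controls were left out of the tests. The platform annotation gave 1 symbol for 34945 of the other 45037 probe sets, several for 932 and none for 9160; 34741 of the 34945 were found by gene identifier in the RefSeq table of GRCm38.p6. Probe sets above the median (percentile 50) of their array on at least 3 arrays were kept, 22497 with 10372 genes of 1 symbol; 16 of the 17 probe sets of the p53 targets and all 9 genes passed.

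Intensities were transformed to log2(value + 16), so differences are on that scale and understate those of dim genes. Mutant minus wild type was tested two-sided with limma 3.58.1 (lmFit, eBayes) in R 4.3.3 without a block, with Benjamini-Hochberg adjustment over all kept probe sets and a threshold of 0.05; SE and 95% intervals are limma's. The fit was also run on simulated arrays with known fold changes, and the outcome is not given here. Promoter sequences are RefSeq's. To check the pairing, each array's deviation from its group mean was correlated across probe sets with that of every array of the other group. Same-numbered arrays gave 0.797, 0.671 and 0.845 and all others -0.618 to -0.0138. Same-numbered arrays were therefore treated as pairs in the pair differences and in the fit with blocks. The main fit ignored the pairing, so its SE, intervals and p-values include the spread between replicate numbers.

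The members, gene lists and tests were chosen with earlier results of these data known. All 9 measured members are named; of each other list, up to 4 genes with the smallest p, with Mdm4, Cdkn1a and Fas; and the 3 genes most correlated with the members' mean. The markers of other cells are given as list values. The pseudocount, filter, normalization, block, variance trend, arrays and probe set rule were varied.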

Additional observations from a re-analysis of the deposited data

How the results depend on the processing

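Over all alternatives 0 of the 9 genes passed by limma, and the number of probe sets passing was 0 except 1 when same-numbered arrays formed random blocks. The replicate block changed no call of these genes. Without an array or a pair, 10 of 81 differences of single genes turned sign, and under the other alternatives 0 of 81 did. Across these omissions Mdm2 ranged from -0.58 to 0.21, Ccng1 from -0.30 to 0.0706, Trp53inp1 from -0.96 to 0.0207, Zmat3 from -0.43 to 0.0562 and Sesn1 from -0.10 to 0.47. Bbc3 (-0.67 to -0.09), Pmaip1 (-0.9996 to -0.32), Phlda3 (-1.07 to -0.19) and Ei24 (-0.14 to -0.01) stayed below 0. The median over the 9 genes ranged from -0.49 to -0.05, and the number of genes lower in every remaining pair from 2 to 5, since fewer pairs remain. Dim probe sets, such as the second one of Trp53inp1, limit what a log2 difference can show.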
